A study of Mus musculus with 1931 samples.

Results

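The metallothionein genes *Mt1* and *Mt2*, the zinc sensor gene *Mtf1* and the zinc transporter genes *Slc30a1*, *Slc39a1* and *Slc39a10* were followed across the cells of RtL-embryoids, that is, rosette-to-lumen stage embryo models assembled from mouse ESCs, and across 2D stem cell cultures. These 6 genes, of 20999 in the deposited table, were chosen by how widely their levels spread between Epi-like cells, so this spread is given as a description and supports nothing. All 6 were above 0 in some cells of every group. Cells with at least 2500 genes above 0 were used, which left 1406 of 1931 wells. Levels are means that count cells at zero, in TP10k, that is TPM scaled to a sum of 10000 per cell. TPM are corrected for transcript length, which allows levels of different genes to be set side by side.

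Metallothioneins are small cysteine-rich proteins that bind zinc and copper ions in the cytosol and buffer their free concentration. When free zinc is high, the transcription factor encoded by *Mtf1* binds short metal response elements in front of its target genes, among them *Mt1*, *Mt2* and *Slc30a1*. Transporters of the SLC30 family (ZnT) move zinc out of the cytosol, either across the plasma membrane or into vesicles, and transporters of the SLC39 family (ZIP) move zinc into it.

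The RtL-embryoids were assembled from 3 ESC lines. Kermit ESCs carry GFP driven by the *Oct3/4* promoter, 5-Factor ESCs carry transgenes that doxycycline (DOX) switches on, namely *Tfap2c*, *Cdx2*, *Gata3*, *Eomes* and *Ets2*, and an mCherry-transduced iGATA6 line carries a DOX-inducible *Gata6* transgene. The structures received DOX at 2 µg/ml, which was then withdrawn, and were hand-picked, pooled, dissociated and sorted by GFP, mCherry and a CD40 antibody stain into plates 3, 4 and 5. In 2D, Kermit ESCs were kept in 2i/LIF medium (plate 7), iTSC were induced from 5-Factor ESCs in TS medium with FGF4 and heparin (plate 8), and iXEN cells were induced from iGATA6 ESCs in XEN medium (plate 9), both with DOX that was later removed. Reads of the DOX-inducible transgenes were not told apart from those of the endogenous genes.

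Neither the labels nor the methods say which well columns received which cells. Columns 1 to 8, 9 to 16 and 17 to 24 of the 3D plates are called Epi-like, VE-like and ExE-like here because all 7 epiblast, 8 visceral endoderm and 8 extraembryonic ectoderm markers were highest in these columns, respectively. Cell by cell, the epiblast list was the highest in 100% of 314 Epi-like cells and the endoderm list in 97.8% of 315 VE-like cells, but the ectoderm list in only 70.3% of 353 ExE-like cells. Of the remaining ExE-like cells, 45 had the highest mean for the epiblast list and 60 for the endoderm list. Among 141 iTSC, 89 were highest in the ectoderm list and 52 in the epiblast list, whereas all 142 ESCs and 141 iXEN cells were highest in the epiblast and endoderm list, respectively. The ectoderm list holds the transgene factors *Cdx2*, *Eomes*, *Gata3* and *Tfap2c*, and the endoderm list holds *Gata6*. The part of transgene reads in these marker levels was not tested. The median number of genes above 0, which stands in for depth, was 4823, 5348 and 5396 in Epi-, VE- and ExE-like cells and 9093.5, 8537 and 8699 in ESCs, iTSC and iXEN cells. Each condition is 1 sample and the 3D plates are technical splits of 1 pool, so no test between conditions was possible, and a difference is given with its value on each plate. Since 3D and 2D cells also differ in medium, plate and depth, these cannot be told apart from 3D culture itself. Epi-like cells and ESCs differ in DOX as well, which the structures received and which is not described for the ESCs. Each 2D culture also had its own medium and plate, and DOX was given to iTSC and iXEN cells. Between the 2D groups, these cannot be told apart from cell type.

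*Mt1* and *Mt2* lie next to each other on mouse chromosome 8 (GRCm38), both on the plus strand. *Mt2* spans 94172664-94173568 and *Mt1* spans 94179082-94180327, 5513 bp further on, and the 4 metallothionein genes there, *Mt4*, *Mt3*, *Mt2* and *Mt1*, fit into 43131 bp. The other members are found elsewhere in the genome, *Mtf1* at 4:124802104-124849800, *Slc30a1* at 1:191906767-191913247 and *Slc39a1* at 3:90248172-90253612, all on the plus strand, and *Slc39a10* at 1:46807544-46892852 on the minus strand.

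The 250 bases before each RefSeq start (GRCm38.p6) were searched for the 7-letter core of the metal response element, TGCACNC or TGCGCNC, on both strands. *Mt2* holds 3 cores, *Mt1* holds 1 and *Slc30a1* holds 1, and these 3 windows are shown because they contain the letters that the zinc sensor reads. Capitals mark the cores, and a core on the opposite strand appears as its reverse complement (GNGTGCA or GNGCGCA).
Mt1, chr8:94178839-94179088, plus strand: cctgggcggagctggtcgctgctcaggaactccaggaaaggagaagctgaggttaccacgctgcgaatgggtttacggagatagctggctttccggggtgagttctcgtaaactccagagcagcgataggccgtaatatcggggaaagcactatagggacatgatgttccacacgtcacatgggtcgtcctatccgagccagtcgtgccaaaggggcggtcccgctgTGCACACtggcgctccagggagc
Mt2, chr8:94172368-94172617, plus strand: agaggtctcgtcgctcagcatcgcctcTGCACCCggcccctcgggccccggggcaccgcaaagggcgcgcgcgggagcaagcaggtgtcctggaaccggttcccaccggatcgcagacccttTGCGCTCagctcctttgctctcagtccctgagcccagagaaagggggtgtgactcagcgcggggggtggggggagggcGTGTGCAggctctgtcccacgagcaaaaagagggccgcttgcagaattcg
Slc30a1, chr1:191906531-191906780, plus strand: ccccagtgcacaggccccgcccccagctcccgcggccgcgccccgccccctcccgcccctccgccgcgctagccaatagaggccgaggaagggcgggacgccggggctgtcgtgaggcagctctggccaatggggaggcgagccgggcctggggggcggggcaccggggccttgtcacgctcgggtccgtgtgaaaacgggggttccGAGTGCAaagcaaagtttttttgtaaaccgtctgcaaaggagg
The core of *Mt1* begins 23 bp before the start, those of *Mt2* begin 223, 128 and 50 bp before it, and that of *Slc30a1* begins 43 bp before it. Among all 32851 windows of this length, 21.4% hold at least 1 core, 5.17% at least 2 and 1.26% at least 3, so a single core is common. These letters do not occur in the windows of *Mtf1*, *Slc39a1* or *Slc39a10*, which says nothing about binding elsewhere.

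For both metallothioneins the annotated start lies upstream of a TATAAA box, 128 bases in *Mt1* and 89 bases in *Mt2* (Gencode vM21), and this stretch of the annotated first exon holds 4 further cores in *Mt1* and 3 in *Mt2*. A site of 30 bases with 2 cores is shown from each gene, with the cores in capitals, to show how closely they are spaced.
Mt1, chr8:94179088-94179117, plus strand, first exon: ctcTGCACTCcgcccgaaaagTGCGCTCgg
Mt2, chr8:94172674-94172703, plus strand, first exon: gcGTGTGCAggcggcgggggcGCGTGCAtg
In the *Mt1* site both cores are on the strand of the gene, and in the *Mt2* site both are on the opposite strand. A match of letters describes the sequence and does not show that a factor was bound there in these cells.

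*Mt1* was lowest in Epi-like cells, at 8.04 TP10k, compared with 19.3 in VE-like and 30.4 in ExE-like cells. On plates 3, 4 and 5 it stood at 9.13, 8.96 and 6.08 in Epi-like, at 22.9, 22.6 and 11.4 in VE-like and at 38.1, 32.2 and 20.2 in ExE-like cells. Every plate mean of the Epi-like cells was thus below every plate mean of the other 2 groups. The ranges of VE- and ExE-like cells overlapped, but on each plate ExE-like cells were the higher (log2 ratio of VE- to ExE-like cells -0.73, -0.51 and -0.83). In 2D, the levels were 12.5 in ESCs, 42.8 in iTSC and 51.7 in iXEN cells. *Mt1* was therefore lower in the ESC-type cells than in the extraembryonic types in both kinds of culture, with a 6.42-fold distance between iXEN and Epi-like cells. In 2D, however, cell type cannot be told apart from medium, plate and DOX. By mean level *Mt1* ranked 131st of 7123 genes in Epi-like cells and 83rd of 10984 in ESCs, but 11th of 8126 in ExE-like cells, 11th of 10537 in iTSC and 9th of 10268 in iXEN cells.

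*Mt2* had a different order. Its mean was 6.13 TP10k in Epi-like and 6.17 in VE-like cells, where plate values of 7.56, 6.33 and 4.57 and of 6.54, 7.31 and 4.5 overlapped, and 16 in ExE-like cells, with 20.4, 16.3 and 11. In 2D it stood at 7.81 in ESCs, 20.6 in iTSC and 17.1 in iXEN cells. The low *Mt2* of the 3D VE-like cells was thus not found in iXEN cells, which stood 2.77-fold above them.

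**Figure D1:**
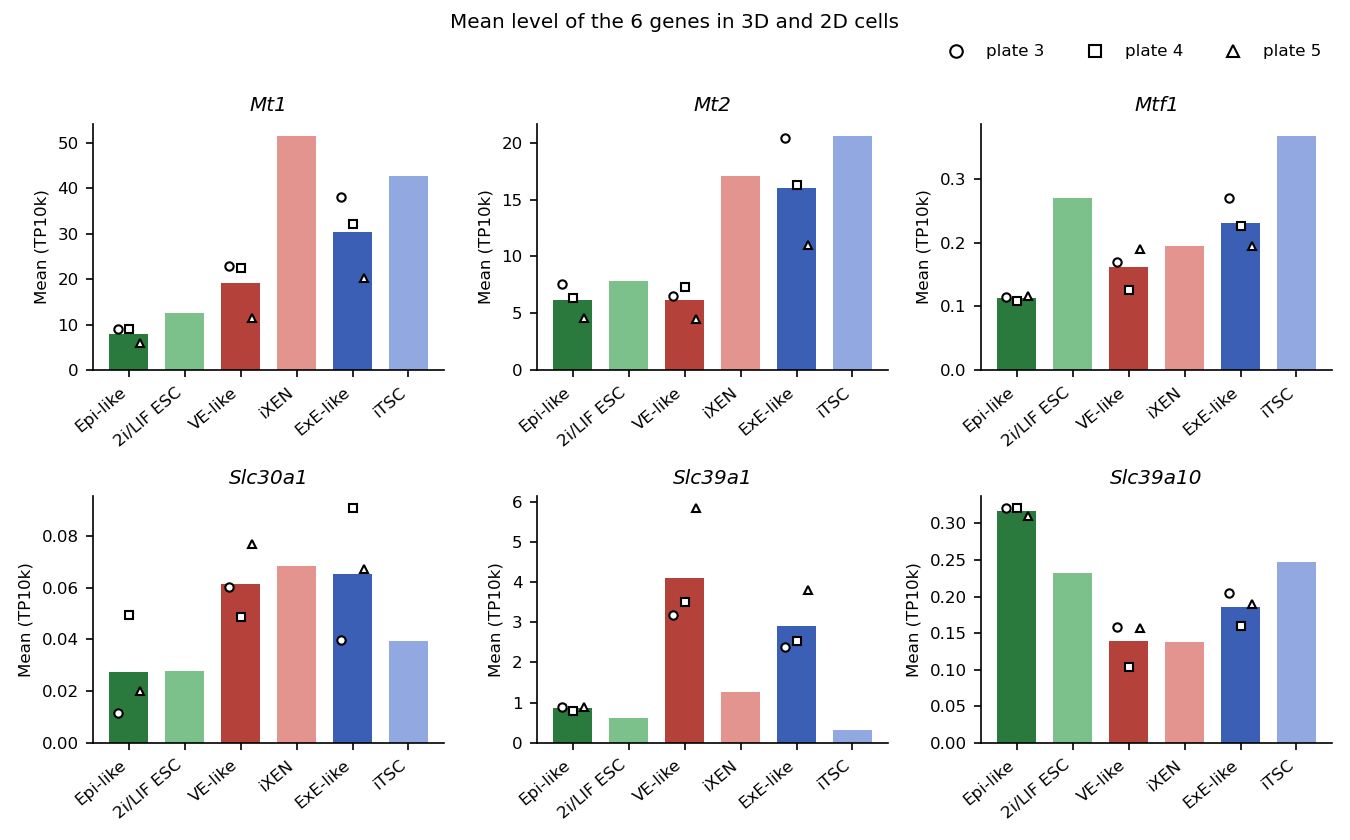
Mean level (TP10k) of each of the 6 genes in Epi-like cells, 2i/LIF ESCs, VE-like cells, iXEN cells, ExE-like cells and iTSC. Bars show the mean over all cells of a group, and open symbols the mean on plates 3, 4 and 5 for the 3D groups. *Mt1* was lowest in Epi-like cells and highest in iXEN cells, and *Slc39a1* was highest in VE-like cells and lowest in iTSC.

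On plate 5 both metallothioneins were lower than on plates 3 and 4 in all 3D groups. The ratio of the means was 0.673, 0.501 and 0.573 for *Mt1* and 0.659, 0.650 and 0.597 for *Mt2* in Epi-, VE- and ExE-like cells. *Slc39a1* went the other way in VE-like and ExE-like cells, at 1.75 and 1.55, and stood at 1.06 in Epi-like cells. The median number of genes above 0 in Epi-like cells was 5710, 4448 and 4199 on plates 3, 4 and 5, and the part of depth in these plate differences was not tested. Because splits of 1 pool differ in this way, each comparison is given within plates.

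Of the 31-base words in the annotated transcripts of *Mt1* (Gencode vM21), 0% occur in transcripts of other genes, and the share was 0.524% for *Mt2*, so their reads could be told apart. It was also 0% for *Mtf1* and *Slc30a1* and 1.62% for *Slc39a10*, but 27.7% for *Slc39a1*, mostly shared with its processed pseudogene *Slc39a1-ps*. The pseudogene was above 0 in 5 of 1931 wells.

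Within the Epi-like cells, *Mt1* ranged from 0 to 65.9 TP10k with a lower quartile of 1.14, a median of 4.29 and an upper quartile of 11. By plate, the highest cell stood at 65.9, 54.5 and 34.4 and the median at 4.48, 4.33 and 4.07, so the medians differed little while the upper ends did. *Mt2* ranged from 0 to 33.8 with a median of 4.10. By the SD of ln(TP10k + 1), *Mt1* was the 3rd and *Mt2* the 14th most variable of 7123 genes in Epi-like cells. This is the quantity behind the choice of the genes. In the other groups, *Mt1* ranked 2nd of 7904 genes in VE-like cells, 14th of 8126 in ExE-like cells, 25th of 10984 in ESCs, 23rd of 10537 in iTSC and 12th of 10268 in iXEN cells. A wide spread was therefore found in all groups, whereas the transporters varied less in Epi-like cells. Their ranks were 4332 for *Slc39a1* and 5191 for *Slc39a10*, and *Mtf1* and *Slc30a1* were above 0 in too few cells to be ranked.

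The spread of *Mt1* was unequal between Epi-like cells and ESCs. In Epi-like cells the 31 highest of 314 cells held 39.7% of the summed *Mt1*, whereas in ESCs the 14 highest of 142 cells held 22.1%. ESCs ranged up to 36.7 TP10k with a median of 11.3, above the Epi-like median of 4.29, and their lower quartile was 7.35. The corresponding share was 31.7% in VE-like cells, 37.0% in ExE-like cells, 32.3% in iTSC and 29.9% in iXEN cells. The highest cells of all belonged to the ExE-like group (264 TP10k) and to iTSC (261 TP10k). Epi-like cells had fewer genes above 0 than ESCs, and the part of depth in the zeros was not tested. Within Epi-like cells the mean of *Mt1* and *Mt2* had a Spearman correlation of 0.078 with the number of genes above 0 (n = 314 cells of 1 pool, a description).

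**Figure D2:**
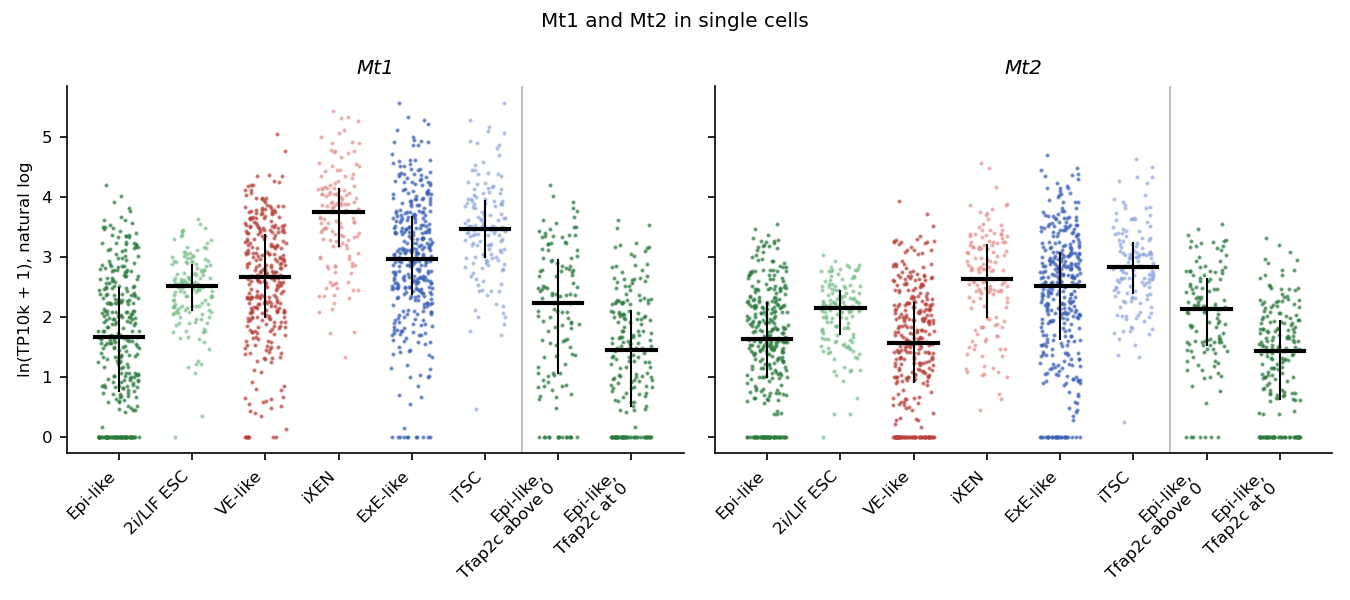
*Mt1* and *Mt2* in single cells as ln(TP10k + 1), natural log, for the 6 groups and, right of the grey line, for the Epi-like cells with *Tfap2c* above 0 (124 cells) or at 0 (190 cells). Points are cells, horizontal bars medians and vertical bars the range from the lower to the upper quartile. For *Mt1*, Epi-like cells reach from 0 to above 4, whereas almost all ESCs lie between 1 and 4.

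Shares of cells with a gene above 0 are given with exact binomial (Clopper-Pearson) 95% intervals, which cover counting error alone, since the reads carry no molecular identifiers. *Mt1* was above 0 in 81.8% of Epi-like cells (257 of 314, interval 77.1 to 86.0), 97.5% of VE-like cells (95.1 to 98.9) and 96.9% of ExE-like cells (94.5 to 98.4). In 2D the share was 99.3% in ESCs and 100% in iTSC and iXEN cells. *Mt2* was above 0 in 85.0% of Epi-like cells (80.6 to 88.8), 83.5% of VE-like cells (78.9 to 87.4) and 92.9% of ExE-like cells (89.7 to 95.4). Of the Epi-like cells, 235 had both genes above 0, 22 had only *Mt1*, 32 had only *Mt2* and 25 had neither. VE-like cells were one-sided, with 45 cells that had only *Mt1* and 1 that had only *Mt2*.

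The ratio of mean *Mt1* to mean *Mt2* differed between the groups and held its order on the plates. It was 1.31 in Epi-like cells (1.21, 1.42 and 1.33 on plates 3, 4 and 5), 1.90 in ExE-like cells (1.86, 1.98 and 1.84) and 3.12 in VE-like cells (3.5, 3.09 and 2.53), with no overlap between the plates of different groups. The 2D cultures showed the same order of types, with 1.6 in ESCs, 2.07 in iTSC and 3.02 in iXEN cells. In the cells with both genes above 0, the median ratio was 1.23, 1.93 and 3.30 in Epi-, ExE- and VE-like cells and 1.6, 2.00 and 3.23 in ESCs, iTSC and iXEN cells. On plate 5 the ratio was within the range of the other plates in Epi-like cells, but it was the lowest of the plates in VE-like and ExE-like cells.

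**Figure D3:**
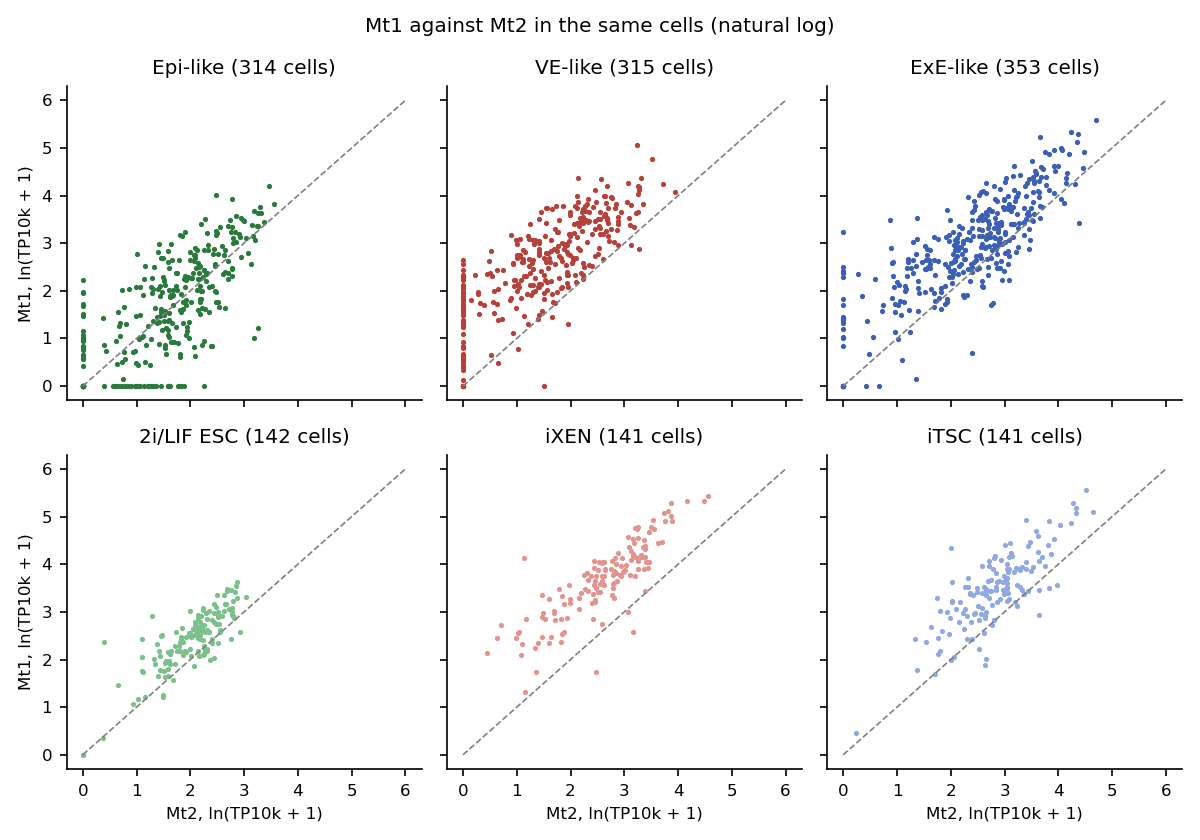
*Mt1* against *Mt2* in the same cells, both as ln(TP10k + 1), natural log, for the 6 groups. Each point is a cell and the dashed line marks equal values. In VE-like and iXEN cells most points lie above the line (ratio of means 3.12 and 3.02), and in Epi-like cells they lie on both sides of it (1.31).

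*Mt1* and *Mt2* varied together from cell to cell. Across Epi-like cells their Spearman correlation was 0.72 (Pearson 0.72, n = 314), and on plates 3, 4 and 5 it was 0.79, 0.72 and 0.69. In the other groups it was 0.79 in VE-like cells, 0.81 in ExE-like cells, 0.75 in ESCs, 0.74 in iTSC and 0.85 in iXEN cells. In the 235 Epi-like cells with both genes above 0 it was 0.63, an alternative added after the data had been seen. These correlations describe cells that share a pool, a library batch and a scaling factor.

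The zinc sensor and the transporters had weaker correlations with the metallothioneins. In Epi-like cells the correlation with the mean of *Mt1* and *Mt2* was 0.046 for *Mtf1*, 0.039 for *Slc30a1*, 0.025 for *Slc39a1* and -0.037 for *Slc39a10*. For *Mtf1*, *Slc30a1* and *Slc39a10*, which had many cells at 0, such numbers are no finding. *Slc39a1* was above 0 in 90.4% of Epi-like cells. Its correlation was 0.098, -0.12 and 0.17 on plates 3, 4 and 5, a description. In iXEN cells, *Slc39a10* stood at -0.31 and *Slc30a1* at 0.24, and in VE-like cells *Slc39a10* stood at -0.23, with -0.26, -0.12 and -0.36 on plates 3, 4 and 5. *Slc39a1*, which was above 0 in nearly all VE-like cells, stood there at 0.29, 0.13 and 0.20 on the plates and at 0.087 over all of them.

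Epi-like cells were also divided by *Tfap2c*. The paper names this gene together with *Nanos3*, *Kit* and *Stella* (*Dppa3*) for an Epi-like subpopulation with primordial germ cell (PGC) character. *Tfap2c* was also above 0 in 124 of 142 ESCs, so its detection alone does not mark PGC character. The members were chosen with this division in view, so its values are a description. *Mt1* was 12.2 TP10k in the 124 cells with *Tfap2c* above 0 and 5.34 in the 190 cells at 0, with 12.9, 16.3 and 8.41 against 6.10, 5.56 and 4.37 on plates 3, 4 and 5. *Mt2* stood at 9.06 against 4.22, with 10.2, 11.4 and 6.18 against 5.44, 3.98 and 3.37. The plate means of both genes did not overlap. The median number of genes above 0 was 4853.5 and 4822 over all plates. On plates 3, 4 and 5 it was 5804, 4078 and 4082 against 5655.5, 4554 and 4286, and the part of depth was not tested. Cells with neither metallothionein made up 2.42% of the cells with *Tfap2c* above 0 and 11.6% of those at 0.

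Of the 4 members counted in this comparison (those above 0 in at least 25% of either set of cells), both metallothioneins were past 2-fold in the mean and in the same direction on all plates, with log2 ratios of 1.19 for *Mt1* and 1.10 for *Mt2*, beside 2.48% of 7514 genes overall. Without plate 4 the log2 ratio of *Mt2* was 0.91 and no longer past 2-fold, and that of *Mt1* was 1.04. *Slc39a1* (1.05 against 0.740 TP10k) and *Slc39a10* (0.246 against 0.364) stayed within 2-fold. *Mtf1*, at 0.0631 against 0.146, and *Slc30a1*, at 0.0156 against 0.0350, were above 0 in too few cells to be counted. For *Slc30a1*, 1 cell held 47.9% of the sum of the cells at 0, and without it the log2 ratio was -0.23 in place of -1.16. It was 0.23 without plate 4.

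The level of *Tfap2c* itself did not grade the metallothioneins. In the 62 cells at or below the median of the positive cells (0.953 TP10k), *Mt1* was 11.6 and *Mt2* 9.38, and in the 62 cells above it *Mt1* was 12.8 and *Mt2* 8.74. The PGC genes *Dppa3* and *Nanos3* stood at 4.13 and 0.394 TP10k in the cells with *Tfap2c* against 0.550 and 0.0743 in those without, and the primed pluripotency genes *Otx2* and *Dnmt3b* stood at 0.340 and 0.446 against 1.03 and 1.53. Not all genes of these lists differed so. Of 6 PGC genes, 3 could be counted and 2 were past 2-fold as higher, among them *Tfap2c* itself, which the division fixes. Of 5 primed genes, 3 could be counted and 2 were past 2-fold as lower. Across Epi-like cells the mean of *Mt1* and *Mt2* correlated at 0.34 with *Tfap2c*, at 0.31 with the other 5 PGC genes at 0.26 with the 9 naive pluripotency genes and at -0.28 with the 5 primed genes (Spearman, n = 314). The naive genes were also higher in the cells with *Tfap2c*, with a sum of 15.1 against 11.3 TP10k. The summed heat shock genes stood at 94.5 against 84.5 TP10k. On plates 3, 4 and 5 the sums were 105, 91.2 and 86.6 against 88.1, 77.8 and 89.2. The direction thus did not hold on plate 5, and the part of these genes in the metallothionein difference was not tested.

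In ExE-like cells, where *Tfap2c* is a trophoblast factor, the same division gave smaller ratios. *Mt1* was 32.4 TP10k in 205 cells with *Tfap2c* above 0 and 27.5 in 148 cells at 0, and *Mt2* was 18.1 against 13.1, with log2 ratios of 0.24 and 0.46. On plate 5 *Mt2* stood at 10.8 against 11.2, so its direction did not hold on all plates. The cells with *Tfap2c* had more genes above 0 here, with medians of 5792 and 4837.5. The difference between Epi- and ExE-like cells in this respect was not tested. In ESCs, with 124 cells above 0 and 18 at 0, the log2 ratios were 0.25 for *Mt1* and 0.15 for *Mt2*. In iTSC, with 131 cells above 0 and 10 at 0, they were 0.57 and 0.66.

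The genes whose cell-to-cell pattern was most like that of *Mt1* and *Mt2* were sought among 7121 other genes in Epi-like cells, by the median over the 3 plates of the Spearman correlation with their mean. Among the 5 highest were *Mylpf* (0.45), a myosin light chain gene, *Fabp3* (0.35), a fatty acid binding protein gene, *Cox4i1* (0.34), a subunit gene of cytochrome c oxidase, and *Klhl13* (0.34), an adaptor of ubiquitin ligases. *Mylpf* ranged from 0.58 on plate 3 to 0.14 on plate 5, so its place rests on plates 3 and 4. *Tfap2c* ranked 6th (0.33), the ferritin heavy chain gene *Fth1* 10th (0.32) and *Dppa3* 13th (0.30), which were looked up after the ranking, as was the ferritin light chain gene *Ftl1*, which ranked 2216th (0.035). At the other end, the 5 lowest included *Fgf15* (-0.35), *Prps2* (-0.33), *Mdk* (-0.32) and *Dnmt3a* (-0.31), which encode a fibroblast growth factor, a phosphoribosyl pyrophosphate synthetase, the growth factor midkine and a DNA methyltransferase. Some of these genes also differed by *Tfap2c*, for example *Mylpf*, with 11.9 TP10k in cells with *Tfap2c* and 4.49 in cells without.

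*Mtf1* was weakly expressed in every group, from 0.114 TP10k in Epi-like cells to 0.368 in iTSC. VE-like cells stood at 0.161, ExE-like cells at 0.231, iXEN cells at 0.194 and ESCs at 0.271. The plate means were 0.115, 0.109 and 0.116 in Epi-like, 0.169, 0.126 and 0.190 in VE-like and 0.270, 0.227 and 0.194 in ExE-like cells, so Epi-like cells were lowest on every plate. It was above 0 in 20.1%, 27.9% and 36.3% of Epi-, VE- and ExE-like cells, in that order, and in 89.4% of ESCs, 81.6% of iTSC and 77.3% of iXEN cells, in which far more genes were detected per cell. *Mt1* and *Mtf1* were thus both lowest in Epi-like cells, *Mtf1* was highest in iTSC and *Mt1* in iXEN cells.

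*Slc30a1*, which encodes the zinc exporter of the plasma membrane ZnT1, was the lowest member in every group. It stood at 0.0273 TP10k in Epi-like cells, 0.0615 in VE-like cells, 0.0655 in ExE-like cells, 0.0279 in ESCs, 0.0395 in iTSC and 0.0684 in iXEN cells. Plate means ran from 0.0116 to 0.0495 in Epi-like cells, from 0.0485 to 0.0770 in VE-like cells and from 0.0396 to 0.0909 in ExE-like cells, so Epi-like cells overlapped both other groups. The upper end of the Epi-like cells was set by 1 cell on plate 4 at 3.18 TP10k, which held 37.1% of the summed *Slc30a1* of this group. Without it, an alternative chosen after the data had been seen, plate 4 stood at 0.0199 and the Epi-like mean at 0.0173, and the plates no longer overlapped those of the other groups. The shares of cells above 0 were more distinct, with 12.4% (interval 8.98 to 16.6) in Epi-like, 33.0% (27.8 to 38.5) in VE-like and 26.3% (21.8 to 31.3) in ExE-like cells.

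*Slc39a1*, which encodes the importer ZIP1, had the widest range over the groups among the 6 genes, 13.3-fold from VE-like cells to iTSC. It stood at 4.10 TP10k in VE-like cells (3.17, 3.5 and 5.84 on plates 3, 4 and 5), 2.89 in ExE-like cells (2.39, 2.53 and 3.8) and 0.862 in Epi-like cells (0.899, 0.797 and 0.894). The plate ranges of VE- and ExE-like cells overlapped and lay above that of Epi-like cells, and on each plate VE-like cells were higher than ExE-like cells (log2 ratio 0.41, 0.47 and 0.62). In 2D it was 1.26 in iXEN cells, 0.620 in ESCs and 0.309 in iTSC. It was above 0 in at least 90.4% of the cells of every group, so these differences lie mainly in the level per cell. ExE-like cells and iTSC, the trophoblast types of 3D and 2D, thus stood far apart, while Epi-like cells and ESCs were within 2-fold.

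*Slc39a10*, which encodes the importer ZIP10, had the opposite order in 3D. Epi-like cells were the highest at 0.317 TP10k (0.321, 0.321 and 0.310 on plates 3, 4 and 5), followed by ExE-like cells at 0.185 (0.205, 0.160 and 0.190) and VE-like cells at 0.139 (0.158, 0.103 and 0.157). The Epi-like plates lay above all others, and the ranges of ExE- and VE-like cells adjoined, with 0.158 as the upper end for VE-like and 0.160 as the lower end for ExE-like cells. The 2D levels were 0.232 in ESCs, 0.247 in iTSC and 0.138 in iXEN cells. The shares above 0 were 56.1%, 41.6% and 45.3% for Epi-, VE- and ExE-like cells.

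Groups were then compared by 1 rule over all genes above 0 in at least 25% of either group's cells. A gene was counted where its mean TP10k differed at least 2-fold and, with a 3D group, in the same direction on each plate. No test stands behind this rule, the comparisons share groups, and the genes were chosen with results of these data known. Between Epi- and VE-like cells, 3 of 6 members were past the rule, compared with 29.5% of 8500 genes, namely *Mt1* (log2 ratio -1.26) and *Slc39a1* (-2.25) as lower and *Slc39a10* (1.19) as higher in Epi-like cells. *Slc39a10* was at 1.0 without plate 4, no longer past the rule. *Slc30a1* (-1.17) was not past it because plate 4 stood at 0.03, and it was past it without plate 4 (-2.10) or without the single highest Epi-like cell (-1.83). Between Epi- and ExE-like cells 5 of 6 were past it, compared with 20% of 8511 genes, and all 5 were lower in Epi-like cells, namely *Mt1* (-1.92), *Mt2* (-1.38), *Mtf1* (-1.02), *Slc30a1* (-1.26) and *Slc39a1* (-1.75). Of these, *Mtf1* was no longer past the rule without plate 3, with a log2 ratio of -0.90. *Slc30a1* stood at -1.19 without plate 3 but was then above 0 in under 25% of the cells of both groups. The median log2 ratio of the 6 members was -1.32 beside -0.10 over all genes counted, and it was -0.84 beside 0.02 between Epi- and VE-like cells. Between VE- and ExE-like cells, *Mt2* (-1.37) was the single member past the rule, compared with 20.2% of 8694 genes.

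ExE-like cells were also divided by their highest marker list. The 248 cells highest in the ectoderm list had 31.6 TP10k of *Mt1*, 17.2 of *Mt2* and 2.80 of *Slc39a1*, the 45 cells highest in the epiblast list had 18.1, 11.8 and 2.71, and the 60 cells highest in the endoderm list had 34.6, 14.1 and 3.43. *Mt1* was thus highest in the cells leading in the endoderm list, *Mt2* in those leading in the ectoderm list, and *Mt1* of the 45 cells leading in the epiblast list was above the Epi-like mean of 8.04.

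Each 3D type was set beside its 2D counterpart. Between Epi-like cells and ESCs, 1 of 6 members was past the rule, compared with 16.9% of 11022 genes, namely *Mtf1*, which was lower in Epi-like cells (log2 ratio -1.25, and -1.23, -1.31 and -1.22 on plates 3, 4 and 5). *Mt1* and *Mt2* were at -0.63 and -0.35, within 2-fold. Between VE-like and iXEN cells 3 of 6 were past it, compared with 9.74% of 10283 genes. *Mt1* (-1.42) and *Mt2* (-1.47) were lower and *Slc39a1* (1.70) was higher in VE-like cells. Between ExE-like cells and iTSC, *Slc39a1* alone was past the rule, compared with 19% of 10592 genes, and was 9.36-fold higher in ExE-like cells (log2 ratio 3.23, and 2.95, 3.03 and 3.62 on the plates).

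**Figure D4:**
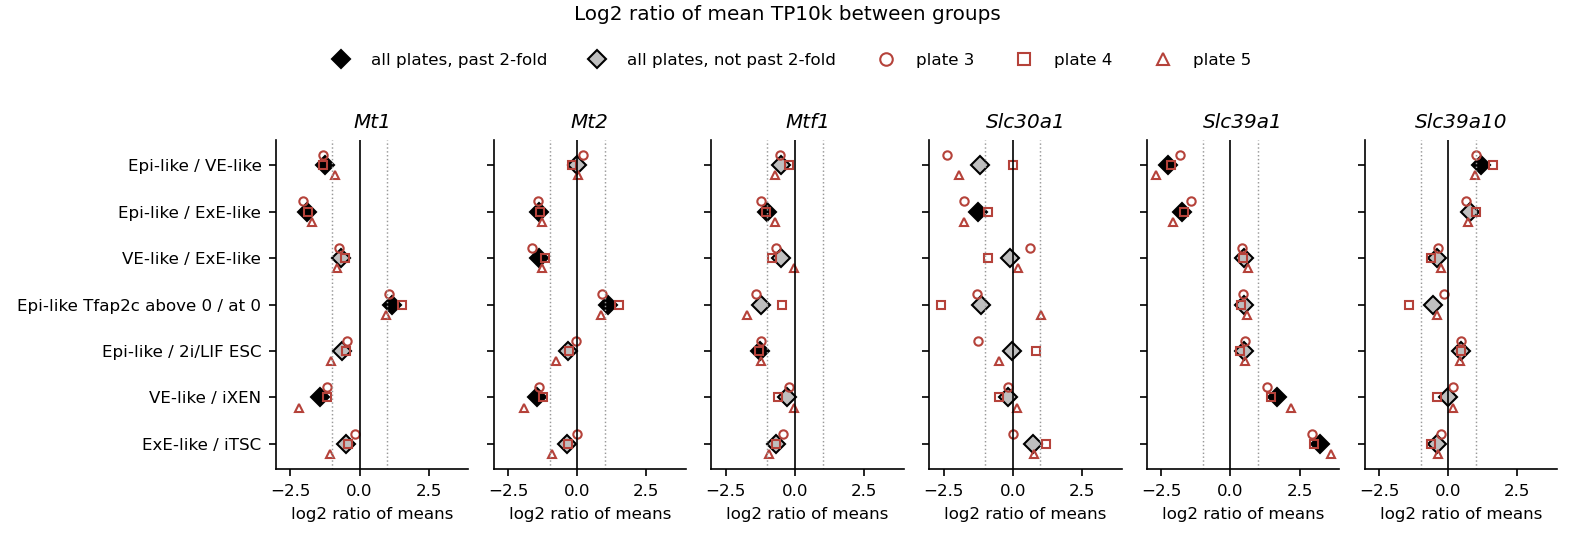
Log2 ratio of mean TP10k for the 6 genes in 7 comparisons, with 1 panel per gene. Diamonds give the ratio over all plates (black where past the 2-fold rule, grey otherwise), open symbols the ratio on plates 3, 4 and 5, and dotted lines mark 2-fold. *Slc39a1* is left of 0 where Epi-like cells are compared with VE-like (-2.25) or ExE-like cells (-1.75) and right of 0 where 3D cells are compared with iXEN (1.70) or iTSC (3.23).

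In 2D, ESCs were lower than iTSC in *Mt1* (log2 ratio -1.78) and *Mt2* (-1.40) and higher in *Slc39a1* (1.0), which makes 3 of 6 members past the rule, compared with 28.5% of 11566 genes. With iXEN cells, 4 of 6 were past it, compared with 36.5% of 11641 genes, and *Mt1* (-2.05), *Mt2* (-1.13), *Slc30a1* (-1.30) and *Slc39a1* (-1.03) were all lower in ESCs. Between iTSC and iXEN cells *Slc39a1* (-2.03) alone was past it, compared with 28.2% of 11161 genes. *Slc39a1* in ESCs included a cell at 12.5 TP10k, far above the median of 0.489, and with cells of at least 4000 genes its log2 ratio to iTSC was 0.98, no longer past the rule.

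The genes of zinc handling were also counted as a list by the same rule. The list holds 29 genes, that is 4 metallothioneins, 10 ZnT genes, 14 ZIP genes and *Mtf1*, the 6 members included. The members past the rule are thus part of each count, 3 between Epi- and VE-like cells and 5 between Epi- and ExE-like cells. Because the members were chosen with results of these data known, the counts are no separate support. Between Epi- and VE-like cells 20 genes of the list could be counted, and 2 were higher and 9 lower in Epi-like cells, beside 29.5% of all genes in either direction. Between Epi- and ExE-like cells it was 1 higher and 8 lower of 19 (20% of all genes), and between VE- and ExE-like cells 3 higher and 2 lower of 21 (20.2% of all genes). In the 3D to 2D comparisons, 1 was higher and 2 lower of 24 in Epi-like cells against ESCs (16.9% of all genes), 1 and 5 of 22 in VE-like against iXEN cells (9.74%), and 4 and 2 of 22 in ExE-like cells against iTSC (19%). In 2D it was 2 and 8 of 24 for ESCs against iTSC (28.5%), 3 and 11 of 24 for ESCs against iXEN cells (36.5%) and 2 and 5 of 23 for iTSC against iXEN cells (28.2%). Several of these counts are near the share of all genes and are no result about the list. By *Tfap2c*, *Mt1* and *Mt2*, both of them members, were the only genes of 12 past the rule (2.48% of all genes).

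The remaining metallothioneins were at or near 0. *Mt3* reached 0.0624 TP10k in Epi-like cells and was above 0 in 0 of the 315 VE-like cells, where 3 cells, taken as the limit that a count of 0 allows, would be 0.952% (exact interval up to 1.2%), and *Mt4* reached 0.0242 in Epi-like cells. *Mt1* and *Mt2* thus made up nearly all metallothionein RNA in every group.

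Several ZIP importers differed widely between types of cell. *Slc39a2* stood at 1.5 TP10k in ExE-like cells (1.12, 1.28 and 2.12 on plates 3, 4 and 5) and at no more than 0.0568 in any other group, iTSC included. *Slc39a8* stood at 0.315 in VE-like (0.310, 0.315 and 0.320) and 0.610 in iXEN cells and at no more than 0.0370 elsewhere. *Slc39a14* was 0.368 in Epi-like cells (0.367, 0.356 and 0.382) and 0.0158 in ESCs, a 23.3-fold difference (log2 ratio 4.54), and the other groups lay between, at 0.170 in VE-like, 0.0760 in ExE-like and 0.179 in iXEN cells and 0.134 in iTSC. *Slc39a4*, the importer whose human counterpart is mutated in acrodermatitis enteropathica, was 0.757, 0.297 and 0.18 in VE-, Epi- and ExE-like cells but 2.08 in iXEN cells and 1.20 in iTSC. *Slc39a7*, which releases zinc from the endoplasmic reticulum, ranged from 0.623 in Epi-like to 1.94 in iXEN cells.

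**Figure D5:**
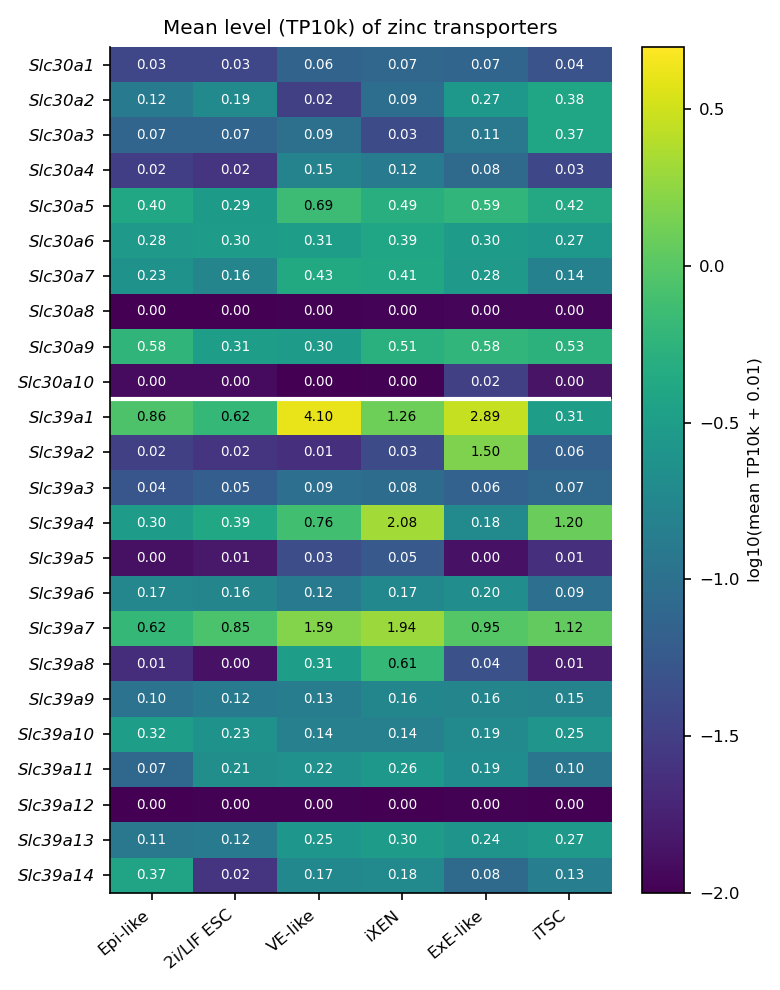
Mean level (TP10k) of 10 ZnT and 14 ZIP genes (rows) in the 6 groups (columns). Numbers are TP10k, colours follow log10(mean TP10k + 0.01), and the white line parts ZnT from ZIP genes. Bright fields include *Slc39a1* in VE-like (4.10) and ExE-like cells (2.89), *Slc39a4* in iXEN cells (2.08), *Slc39a7* in iXEN (1.94) and VE-like cells (1.59) and *Slc39a2* in ExE-like cells (1.5).

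The summed ZIP genes stood at 2.99 TP10k in Epi-like cells, 7.93 in VE-like and 6.67 in ExE-like cells, and at 2.80 in ESCs, 3.77 in iTSC and 7.27 in iXEN cells. VE-like and iXEN cells had a similar sum, to which *Slc39a1* gave the most in VE-like cells (4.10) and *Slc39a4* the most in iXEN cells (2.08), with *Slc39a7* second in both (1.59 and 1.94). The summed ZnT genes varied less, from 1.35 in ESCs to 2.29 in ExE-like cells. Among them, *Slc30a4*, a vesicular exporter, stood at 0.152, 0.0759 and 0.0215 in VE-, ExE- and Epi-like cells. Between Epi- and VE-like cells *Slc39a3*, *Slc39a11* and *Slc39a13* were also past the rule, with log2 ratios of -1.02, -1.66 and -1.19. *Slc39a11* was so between Epi- and ExE-like cells, at -1.49. For *Slc39a3* the log2 ratio of Epi- to VE-like cells was -2.33, -0.02 and -0.55 on plates 3, 4 and 5. This gene was above 0 in 10.2% of Epi-like and 28.3% of VE-like cells.

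Markers of other cells and the position on the plate were set beside these values. The summed fibroblast markers, which would mark feeder cells, were between 0.0117 and 0.0601 TP10k in the 6 groups. The summed parietal endoderm markers were 110 TP10k in VE-like cells and 146 in iXEN cells and between 1.25 and 8.10 elsewhere, so the VE-like columns also carry this signature, whose part in the zinc genes was not tested. Within the Epi-like columns, the Spearman correlation of *Mt1* with the column number was between -0.043 and 0.067 on the 3 plates and with the row between -0.13 and 0.096. Medians of single rows ran from 0.674 to 20.3 TP10k of *Mt1*, each over few cells. At the lower limit of genes per cell, the 5 Epi-like cells with 2500 to under 3000 genes had 5.76 TP10k of *Mt1* and the 3 cells with 2000 to under 2500 genes had 1.83.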

How the data were processed

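RNA of single cells was sequenced by SMART-seq2, 1 cell per well. Per the study's methods, the authors quantified reads with kallisto against Gencode vM16 transcripts (GRCm38), filtered mitochondrial, ribosomal and pseudogene entries, summed transcripts to genes and deposited the values as TPM, which keep no read depth. The deposited table still lists some pseudogenes, such as *Slc39a1-ps*. The submitters' processing notes also name bcl2fastq 2.20 and Seurat. Of 1931 wells, 39 held no values.

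A minimum of 2500 genes above 0 was set per cell (982 of 1149 in 3D, 424 of 782 in 2D remained), and cells were scaled to a sum of 10000 (TP10k). Means over cells were compared by the 2-fold rule among genes above 0 in at least 25% of either group. With 1 sample per condition, cells are no replicates and no test was made. Plates 3, 4 and 5 are technical splits. Doublets were not called. Named are the 6 members, every zinc gene with a mean of at least 1 TP10k in a group or past the rule between 3D groups, and the 5 genes most and least like *Mt1* and *Mt2*; 1 gene at each end of that ranking is not reported here, and other genes were looked up afterwards. The members and gene lists were chosen with earlier results of these data known. Alternatives changed the minimum of genes, the grouping, the scaling, the mean, the filter, a pseudocount, each plate and the *Tfap2c* limit, and alternatives chosen after the data had been seen are named as such. Python 3.11.15, numpy 2.4.6, pandas 2.3.3 and scipy 1.17.1 were used. The 2-fold rule, but not the other steps, was tried on the Epi-like cells with changes planted in some genes. Gene positions came from Gencode vM21, which differs from the authors' release but has the same build, and promoter sequences from RefSeq.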

Additional observations from a re-analysis of the deposited data

Results flagged for a closer look

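*Slc39a10* had opposite signs in 2 of the comparisons between 3D and 2D cells on all 3 plates. Its log2 ratio was 0.45 in Epi-like cells against ESCs and -0.42 in ExE-like cells against iTSC, but with no minimum of genes per cell the latter was 0.32 and the signs were then not opposite. The division by *Tfap2c* also gave opposite signs in Epi- and ExE-like cells. *Slc39a1* stood at a log2 ratio of 0.50 in Epi-like cells (-0.00 when 3D cells were grouped by their highest marker list) and -0.60 in ExE-like cells, and *Slc39a10* stood at -0.57 in Epi-like cells and 0.38 in ExE-like cells. All of these are within 2-fold, and none of the differences was tested, since each condition is 1 sample.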

How the results depend on the processing

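No paired analysis was possible because each condition is 1 sample and no result comes from a test. Of 24 log2 ratios past the 2-fold rule, 23 kept their sign under every alternative, and no call of *Mt1* was lost. *Slc39a1* between ESCs and iTSC reversed from 1.0 to -1.43 with no minimum of genes per cell. With a pseudocount of 0.1 TP10k, the members past 2-fold were 3 in place of 5 between Epi- and ExE-like cells, 0 in place of 1 between Epi-like cells and ESCs and 2 in place of 4 between ESCs and iXEN cells, where by its construction low genes give smaller ratios. With no minimum of genes they were 2 in place of 1 between Epi-like cells and ESCs. There *Mtf1* was lost, and *Slc39a1* (log2 ratio 1.34) and *Slc39a10* (1.21) were gained. Between ExE-like cells and iTSC the count was 3 in place of 1, with *Mtf1* (-2.54) and *Slc30a1* (1.46) added. Between iTSC and iXEN cells it was 2 in place of 1, with *Slc39a1* lost and *Mtf1* (2.93) and *Slc30a1* (-1.39) gained. With at least 4000 genes *Slc39a1* stayed there and *Mtf1* (1.05) was added, so the members past 2-fold were again 2. With means on the ln scale they were 2 between Epi-like cells and ESCs, where *Mt1* (-1.37) was added. Without plate 3 they were 3 between Epi- and ExE-like cells, and 2 between ExE-like cells and iTSC, where *Slc30a1* (1.0) was added. Without plate 4 they were 1 in place of 2 for the *Tfap2c* division. The cause of the other changes was not tested. Among alternatives chosen after seeing the data, the Spearman correlation of *Mt1* and *Mt2* in Epi-like cells was 0.774 in 236 cells with at least 4000 genes and 0.629 in 235 cells with both above 0, and 8 of the 10 genes named as most and least like them were named again with at least 4000 genes and with unscaled TPM. Low members such as *Slc30a1* and *Mtf1* are limited by the depth of single cells.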

Other observations

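Copper and iron handling was looked at with a list of 12 genes. Between Epi- and VE-like cells 11 were counted, with 1 higher and 4 lower in Epi-like cells (29.5% of all genes in either direction), and between Epi- and ExE-like cells 10 were counted, with 0 higher and 2 lower (20% of all genes). By *Tfap2c*, 0 of 9 were past the rule (2.48% of all genes). The summed level was 263 TP10k in Epi-like, 276 in VE-like and 194 in ExE-like cells, and 163 in ESCs, 164 in iTSC and 309 in iXEN cells. Across Epi-like cells the list had a Spearman correlation of 0.19 with the mean of *Mt1* and *Mt2* (0.22, 0.12 and 0.19 on plates 3, 4 and 5).

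The summed heat shock genes were 88.4 TP10k in Epi-like, 62.2 in VE-like and 61.1 in ExE-like cells and 145 in ESCs, 97.9 in iTSC and 64.7 in iXEN cells, an order unlike that of *Mt1*. From cell to cell within Epi-like cells, however, their Spearman correlation with the mean of *Mt1* and *Mt2* was 0.20 (0.19, 0.28 and 0.10 on plates 3, 4 and 5). The summed immediate early genes, which respond to dissociation, were between 1.80 in iXEN cells and 3.83 in iTSC, and across Epi-like cells they had a Spearman correlation of -0.077 with the mean of *Mt1* and *Mt2* (n = 314 cells of 1 pool, a description).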
